A study of Mus musculus with 61 samples.

Results

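Gene expression in adipose tissue of PWK mice was compared with that of 4 classical laboratory strains, 129, AJ, B6 and NOD, called the core strains below. The 38 libraries were chosen by the strain in their labels, 8 of PWK against 30 of the core strains (7 of 129, 7 of AJ, 8 of B6 and 8 of NOD), out of 61 libraries of 8 strains. Animals of each strain, core strains included, had been put on a diet rich in fat and sugar, labelled 45 percent fat, so no library comes from a lean diet. The labels give the tissue as adipose, with no fat depot, sex, age or litter, and do not say whether 2 libraries of a strain came from separate animals. The p-values below therefore measure the spread between these libraries, which may in part be technical. Of 21169 genes in the deposited table, 18603 passed a filter on low counts and were tested. A fold change is PWK over the unweighted mean of the 4 core strain means, and a gene was called when its adjusted p was under 0.05 in edgeR's quasi-likelihood test with Benjamini-Hochberg adjustment. Levels are in CPM, counts scaled to a common library size, and are compared between libraries, not between genes.

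PWK is a wild-derived strain of the house mouse subspecies Mus musculus musculus, whereas the core strains descend mainly from Mus musculus domesticus and differ much less from each other in sequence. White fat cells store triglyceride and secrete hormones such as leptin and adiponectin. Brown and beige fat cells hold many mitochondria and burn fatty acids, and their protein UCP1 lets protons leak back across the inner mitochondrial membrane so that fuel is released as heat. Macrophages, lymphocytes, mast cells, vessels and fibroblast-like progenitors make up most of the remaining cells of the tissue. In such bulk samples, fewer cells of a type and less RNA per cell cannot be told apart.

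Total counts were 33474821 to 49261570 in PWK libraries and 33244228 to 61277576 in core libraries, medians 40245017 and 38449027. Adipoq, which encodes the fat cell hormone adiponectin, had 2012 to 3412 CPM in PWK libraries and 1012 to 3002 CPM in core libraries and was thus abundant in each of them. Xist, the RNA that coats an inactive X chromosome, split the libraries of both sides. It had 394 to 608 CPM in PWK replicates 1, 2, 6 and 7 and 0.257 to 6.09 CPM in PWK replicates 3, 4, 5 and 9, against 418 to 630 CPM in 15 core libraries and 0.212 to 7.33 CPM in the other 15. Sex is not in the labels and no library was given one here. Transcripts of other organs were present as well. The summed liver markers reached 918, 846 and 1370 CPM in PWK replicates 2, 4 and 7 and lay at 12.5 to 1370 CPM over all PWK libraries, against 6.98 to 1770 CPM in core libraries, where 2 libraries passed 500 CPM. Summed skeletal muscle markers were at 27.3 to 119 CPM in PWK libraries and 45.9 to 4230 CPM in core libraries, and summed genital duct markers at 0.0209 to 4.39 CPM in PWK libraries and 0 to 1280 CPM in core libraries. PWK replicates 2 and 7 were thus both rich in liver markers and high in Xist.

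PWK adipose tissue differed from the core strains in 8644 genes, 46.5% of those tested. Of these, 4825 were higher in PWK (25.9% of genes tested) and 3819 were lower (20.5%). The median log2 fold change of all genes tested was 0.03. At least a doubling was seen for 1519 called genes (8.17%) and at least a halving for 1466 (7.88%). The 4 core strains differed among each other in 4798 genes (25.8%). The PWK mean lay outside the range of the 4 core strain means in 8003 of the 8644 called genes. That count is high by the choice of genes, which were called for a difference from the mean of the same 4 strains. It was not taken over all genes tested. Set against the remaining strains, which are used below for single genes, PWK differed from Cast in 44.8% of genes (21.8% lower), from NZO in 55.7% (28.9% higher, 26.7% lower) and from WSB in 40.8% (21.2% higher, 19.6% lower). In 788 genes (4.24%) the PWK and core libraries did not overlap. In 335 of them (1.80%) each PWK library was above each core library, and in 453 (2.44%) each was below. The 5 libraries of PWK, AJ and B6 that were rich in liver markers (over 500 CPM summed) are called liver-rich below. Without them, and with the 2 such libraries of Cast and WSB also left out of the fit, 6408 genes (34.4%) were called. In that fit 18.9% of genes were higher and 15.5% lower. Of PWK it kept replicates 1, 3, 5, 6 and 9, of which 1 and 6 were high in Xist. Fewer PWK libraries, a changed balance of Xist and less liver RNA cannot be told apart in its counts.

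Of the 62 gene lists examined, that of nuclear oxidative phosphorylation genes had the largest share of genes called in 1 direction. It joins subunits of the mitochondrial respiratory chain with those of the ATP synthase, and is called respiratory chain genes below. Of its 78 genes, 72 (92.3%) were higher in PWK and 0 were lower, against a background of 25.9% of genes higher. Their median log2 fold change was 0.75. In this list and in those of the citrate cycle, mitochondrial fatty acid oxidation and glycolysis, 0 genes were lower by edgeR, and the count was 0 as well at an unadjusted p under 0.05 and with DESeq2. All 4 complex II, 9 complex III and 13 complex IV genes were higher, as were 33 of 37 genes of complex I and 13 of 15 of the ATP synthase, with median log2 fold changes of 0.96, 0.80, 0.87, 0.72 and 0.70. The mean log2 CPM of the 78 genes was 7.35, 7.86, 6.11, 6.07, 6.14, 7.22, 7.74 and 6.37 in PWK replicates 1, 2, 3, 4, 5, 6, 7 and 9, against 5.62 to 6.82, median 6.21, in the core libraries. PWK replicates 1, 2, 6 and 7 lay above each core library, and the other 4 PWK libraries lay within the core range. These 4 libraries above the core range are the ones with over 100 CPM of Xist.

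**Figure D1:**
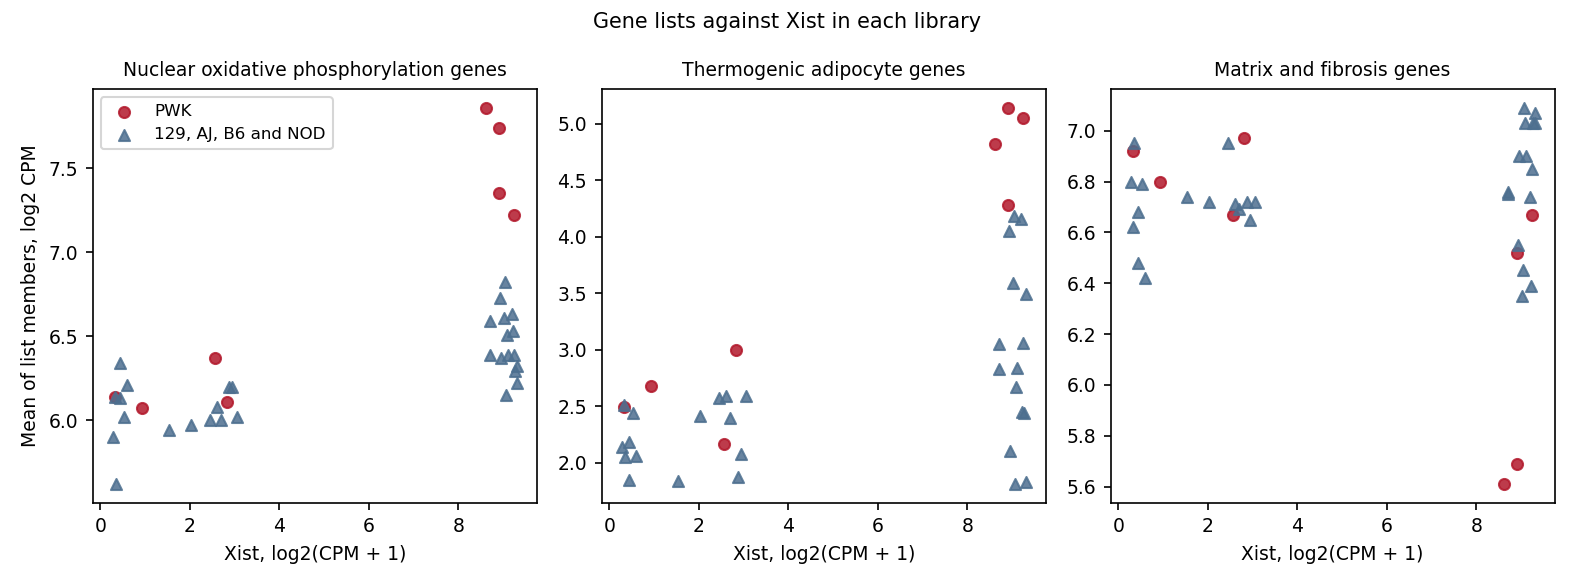
Mean log2 CPM of 3 gene lists in each PWK and core library (vertical axis) against log2(Xist CPM + 1) of that library (horizontal axis), 1 panel per list, 1 point per library. In the panel of oxidative phosphorylation genes, PWK libraries with high Xist lie at 7.22 to 7.86, above the core maximum of 6.82, while those with low Xist lie at 6.07 to 6.37.

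To put a number on that split, a slope on log2(Xist CPM + 1) was fitted for each strain after the data had been seen, and the PWK minus core difference was taken at a log2 Xist of 9 and of 1. Over all genes, 47.2% were called at 9 and 32.4% at 1. At 9, 76 of the 78 respiratory chain genes were higher in PWK, median 1.09, against 25.5% of all genes. At 1, 6 were higher and 1 was lower, median 0.03, against 16.5% and 15.9% of all genes. The difference itself changed with Xist, by the test of the slopes, in 75 of the 78 genes, each of them more in favour of PWK at high Xist, and in 9.27% of all genes. Which property of the libraries Xist stands for cannot be told from the labels. Without the libraries rich in liver markers, 45 of the 78 were higher and 0 lower, median 0.42. That fit lacks PWK replicates 2 and 7, which had the highest means of this list.

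**Figure D2:**
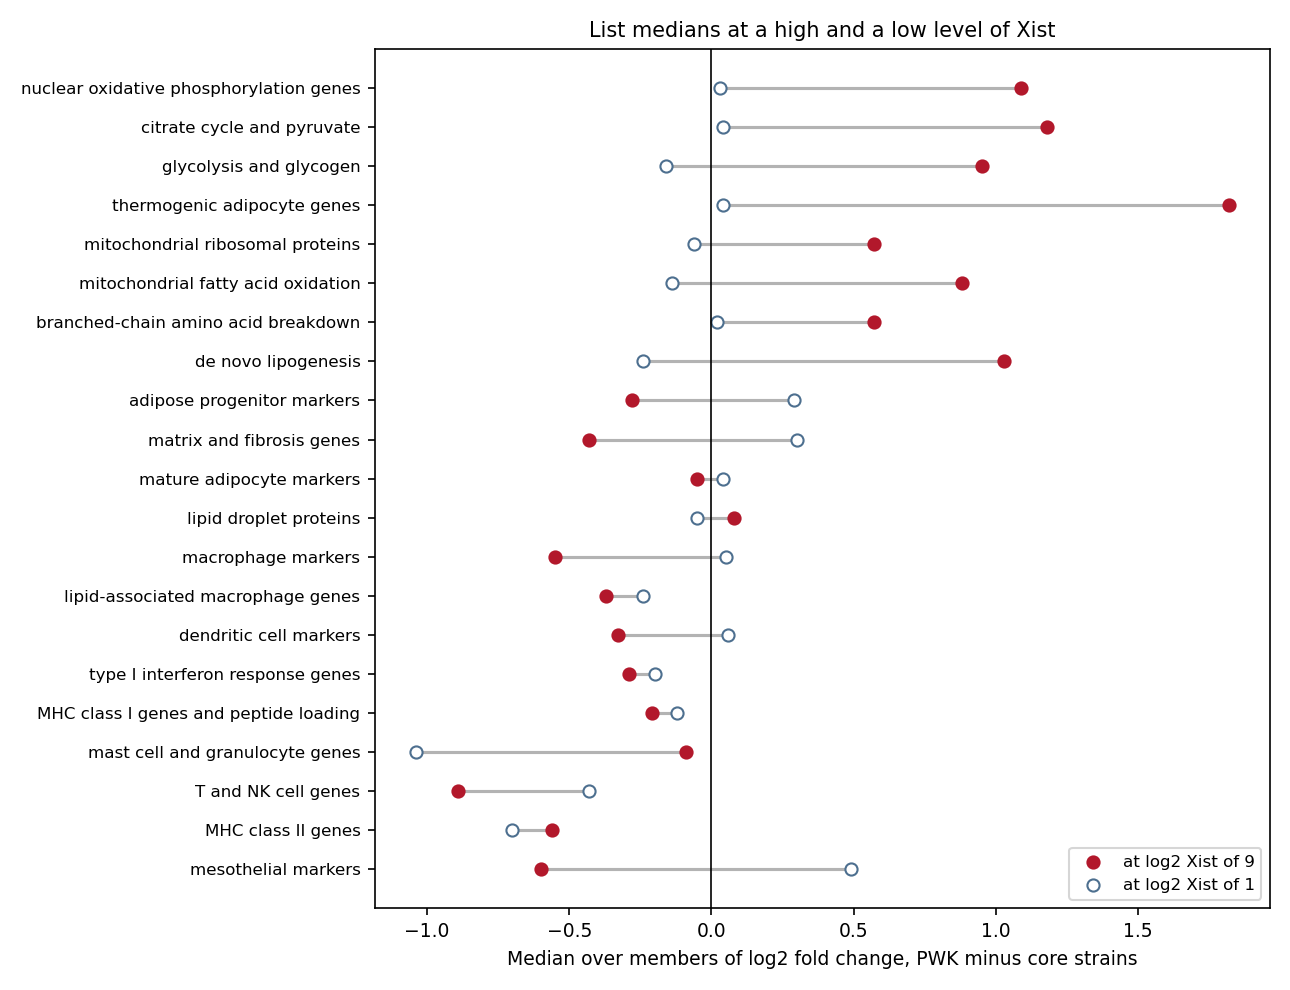
Median log2 fold change (PWK over core) of the genes of each list, fitted at a log2 Xist of 9 and of 1, with 1 line of points per list. The oxidative phosphorylation list has a median of 1.09 at 9 and 0.03 at 1, and the matrix and fibrosis list has -0.43 at 9 and 0.30 at 1.

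Sdhd, which encodes a membrane anchor of complex II, had 93.7 to 355 CPM in PWK libraries, median 175, against 70.5 to 166 CPM, median 96.1, in core libraries. Its log2 fold change was 0.93 ± 0.16 (SE, adjusted p = 3.58e-06). Ndufa11, a membrane subunit of complex I, had 21.1 to 81.0 CPM in PWK libraries, median 39.4, against 21.2 to 38.5 CPM, median 29.9, in core libraries. The PWK and core ranges of both genes overlapped, and the highest PWK values were above the core range. The log2 fold change of Ndufa11 was 0.58 ± 0.14 (SE, adjusted p = 0.000752), and without the libraries rich in liver markers it was 0.26 (adjusted p = 0.165). Both genes were chosen after their values were seen, because their upstream sequence holds a match to the nuclear respiratory factor motif and lies directly before the start of transcription in the deposited annotation. Nuclear respiratory factor NRF1 is a transcription factor known to bind promoters of many respiratory chain genes. The 250 bases upstream of each start are shown as examples, from RefSeq on GRCm38.p6, with the match in capitals, at chr17:56717512-56717761 on the plus strand for Ndufa11 and at chr9:50603850-50604099 on the minus strand for Sdhd.
Ndufa11: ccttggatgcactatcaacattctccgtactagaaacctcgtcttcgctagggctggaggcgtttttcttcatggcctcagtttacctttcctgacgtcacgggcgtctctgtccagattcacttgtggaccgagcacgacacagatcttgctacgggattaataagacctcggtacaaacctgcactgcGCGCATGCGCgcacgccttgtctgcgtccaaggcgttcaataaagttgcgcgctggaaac
Sdhd: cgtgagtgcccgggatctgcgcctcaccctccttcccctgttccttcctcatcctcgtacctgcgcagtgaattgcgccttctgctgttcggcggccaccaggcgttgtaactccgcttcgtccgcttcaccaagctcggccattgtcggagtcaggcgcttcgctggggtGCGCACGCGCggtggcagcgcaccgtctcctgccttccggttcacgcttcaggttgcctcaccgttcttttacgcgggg
The letters searched, on both strands, were GCGCA, 1 base of any kind and GCGC. Where that base makes the match a palindrome, as in Ndufa11, the matches on both strands coincide. A match was found in 12 of the 65 respiratory chain promoters in the RefSeq table (18.5%) and in 1044 of all 27025 promoters (3.86%). A match is a description of these letters and no evidence of binding.

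Genes that feed the chain were higher as well. Of 22 citrate cycle and pyruvate genes, 19 (86.4%) were higher in PWK and 0 lower, median 0.80. At a log2 Xist of 9 this was 21 and 0, at 1 it was 2 and 0, and without the libraries rich in liver markers 8 and 0. Pdhx, the binding protein of the pyruvate dehydrogenase complex, had 46.0 to 169 CPM in PWK libraries, median 82.9, against 25.4 to 82.9 CPM, median 34.2, in core libraries (log2 fold change 1.33 ± 0.17 SE, adjusted p = 2.90e-09). Dlat, its acetyltransferase core, had a log2 fold change of 1.24 ± 0.21 (SE, adjusted p = 3.35e-06).

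Mitochondrial fatty acid oxidation genes were also higher in part. Their mean log2 CPM was 7.76, 8.26, 6.28, 6.27, 6.45, 7.88, 8.40 and 6.43 in PWK replicates 1, 2, 3, 4, 5, 6, 7 and 9, against 6.06 to 7.89 in core libraries. PWK replicates 2 and 7 were above each core library and the other 6 were inside the core range. Of the 25 genes, 14 (56.0%) were higher in PWK and 0 lower, median 0.51. With log2 Xist at 9, the counts were 21 higher and 1 lower, and at 1 they were 1 higher and 6 lower. Leaving out the liver-rich libraries, 5 were higher and 1 lower. The share of higher genes was then near the 18.9% of all genes higher in that fit. Eci1, an isomerase for unsaturated fatty acids, had 59.8 to 312 CPM in PWK libraries, median 138, against 40.2 to 116 CPM, median 59.3, in core libraries (log2 fold change 1.33 ± 0.20 SE, adjusted p = 1.48e-07). Ppara, the nuclear receptor that drives fatty acid oxidation genes, had a log2 fold change of 1.46 ± 0.34 (SE, adjusted p = 0.000403), and 0.93 (adjusted p = 0.0635) without the libraries rich in liver markers. Cpt1b, the muscle-type enzyme that passes fatty acids into mitochondria, had a log2 fold change of 2.00 ± 0.48 (SE, adjusted p = 0.000475), with count estimates that share reads with other genes. The peroxisomal arm of the pathway did not move as a block, with 5 of 24 genes higher, 3 lower and a median of 0.04, and 2 higher without PWK replicate 2 or 7. Its member Phyh, which starts the breakdown of branched phytanic acid, stood apart from all core libraries, with 243 to 612 CPM in PWK libraries, median 309, against 88.5 to 190 CPM, median 134 (log2 fold change 1.48 ± 0.12 SE, adjusted p = 4.82e-15).

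Genes of thermogenic fat cells were higher in PWK over all libraries, and by the slopes on Xist this held at high but not at low Xist. Of 25 such genes tested, 16 (64.0%) were higher and 1 lower, with a median log2 fold change of 1.46. At a log2 Xist of 9, 19 were higher and 1 lower, median 1.82, and at 1, 2 were higher and 4 lower, median 0.04. In the fit that omits the liver-rich libraries, 10 were higher and 0 lower, median 1.07. Ucp1, the uncoupling protein itself, had 422, 920, 6.86, 0.457, 0.131, 1052, 1206 and 1.64 CPM in PWK replicates 1, 2, 3, 4, 5, 6, 7 and 9, against 0.0774 to 771 CPM, median 10.4, in core libraries. Replicates 1, 2, 6 and 7 were thus high, 3 of them above each core library, and the other 4 were below the core median. Its log2 fold change was 3.25 ± 0.89 (SE, adjusted p = 0.00211). That was 3.61 at a log2 Xist of 9 (adjusted p = 1.65e-06) and -2.57 at 1 (adjusted p = 0.0368), and the difference in slope had an adjusted p of 0.000434. The core strains were themselves unequal, with means of 271 ± 334, 149 ± 213, 45.9 ± 68.3 and 2.73 ± 3.17 CPM (SD) in 129, AJ, B6 and NOD. With NOD left out of the reference, the log2 fold change was 1.88 (adjusted p = 0.113).

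Other genes of this program varied over the PWK libraries in the way of Ucp1. Cidea, a lipid droplet protein typical of brown fat, had 215, 347, 6.86, 1.30, 1.38, 270, 415 and 1.87 CPM in PWK replicates 1, 2, 3, 4, 5, 6, 7 and 9, against 1.25 to 227 CPM, median 16.1, in core libraries. Its log2 fold change was 2.98 at a log2 Xist of 9 (adjusted p = 9.20e-11) and -2.58 at 1 (adjusted p = 7.94e-05). Cox7a1, a complex IV subunit of muscle and brown fat, had 25.2, 52.6, 2.49, 1.30, 1.12, 45.0, 59.6 and 1.67 CPM in the same PWK replicates, against 0.842 to 21.7 CPM, median 2.77, in core libraries. The 4 PWK libraries with high Xist were above each core library for Cox7a1 and the other 4 were inside the core range. Its log2 fold change was 2.29 ± 0.53 (SE, adjusted p = 0.00035). Cox8b, another such subunit, and Elovl3, an elongase induced by cold in brown fat, had log2 fold changes of 1.75 ± 0.47 and 3.04 ± 0.61 (SE, adjusted p = 0.00171 and 4.50e-05), and Cox8b was at 1.16 (adjusted p = 0.0875) without the libraries rich in liver markers. Gatm, which makes the precursor of creatine, was the 1 gene of the list that was lower in PWK (log2 fold change -0.54 ± 0.17 SE, adjusted p = 0.00745). This was -0.40 with AJ left out of the reference (adjusted p = 0.0549) and -0.32 without the libraries rich in liver markers (adjusted p = 0.199). The regulators Ppargc1b and Prdm16 were higher by 1.95 ± 0.31 and 1.17 ± 0.18 on the log2 scale (SE, adjusted p = 4.22e-07 and 4.51e-07). Ppargc1a, the coactivator best known for raising mitochondrial genes, was higher by 1.31 ± 0.28 (SE, adjusted p = 0.000105) and by 0.73 (adjusted p = 0.0791) without the libraries rich in liver markers.

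S100b behaved otherwise. It encodes a calcium-binding protein that brown and beige fat cells release and that nerve-associated glia also make. It had 128, 168, 394, 249, 357, 160, 184 and 301 CPM in PWK replicates 1, 2, 3, 4, 5, 6, 7 and 9, against 2.01 to 19.3 CPM, median 7.54, in core libraries. Each PWK library was above each core library, and the 4 PWK libraries with the lowest values were those with high Xist. The log2 fold change was 4.96 ± 0.30 (SE, adjusted p = 4.94e-21), 4.05 at a log2 Xist of 9 and 6.02 at 1 (adjusted p of the difference in slope 0.0188). Of 18 nerve and Schwann cell markers, 3 were higher and 4 lower, median -0.01. Against the remaining strains, S100b was higher in PWK by 1.59 (Cast), 4.54 (NZO) and 2.38 (WSB) on the log2 scale (adjusted p = 0.00299, 1.80e-11 and 1.32e-05).

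**Figure D3:**
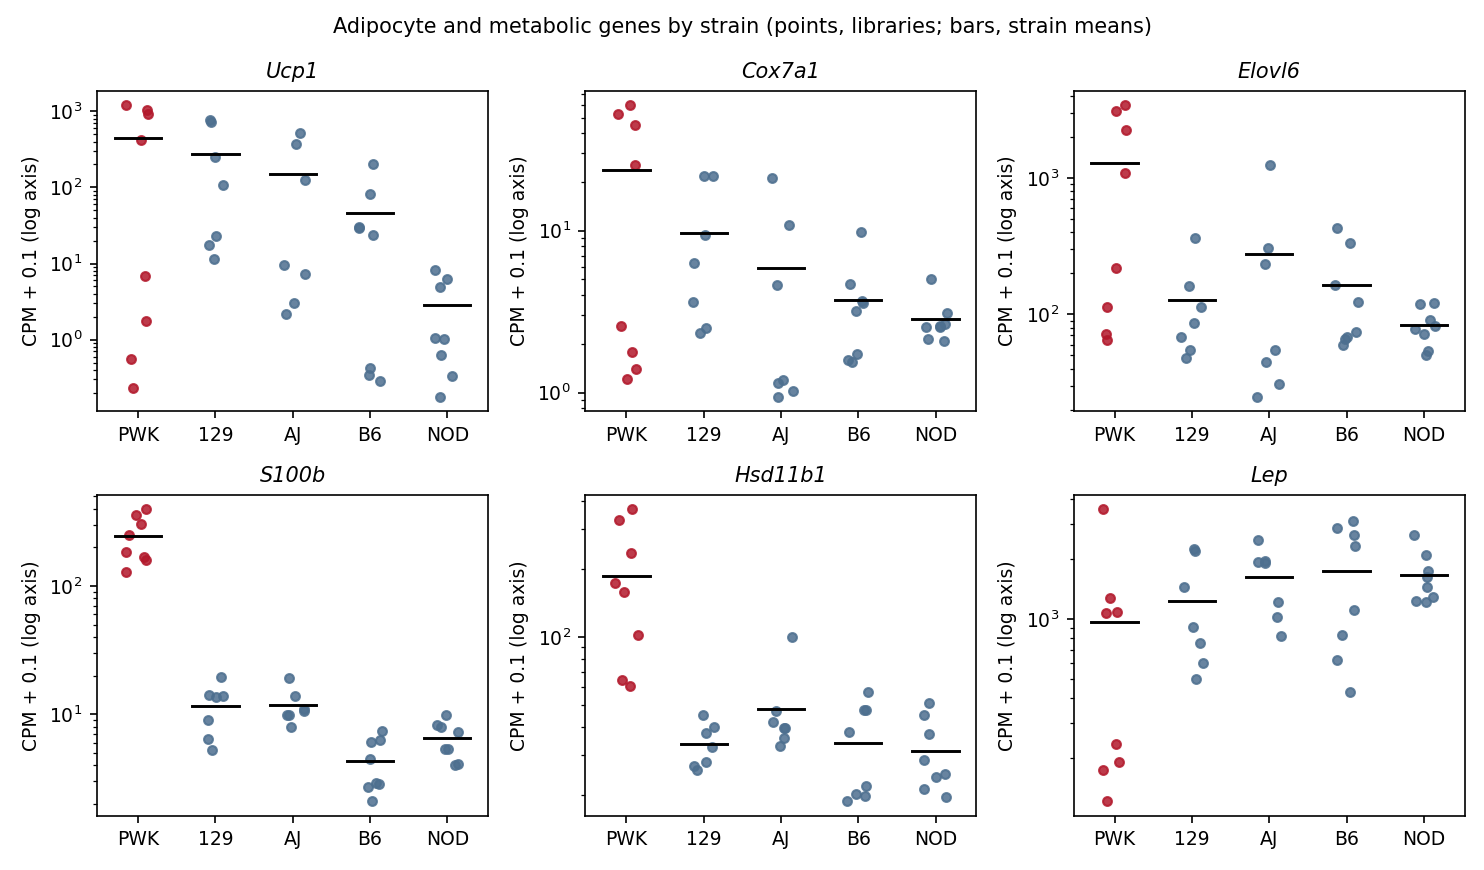
CPM of 6 metabolic genes in each library (log axis, 0.1 added), with PWK left of 129, AJ, B6 and NOD, 1 point per library. PWK libraries fall into a high and a low set for Ucp1, Cox7a1 and Elovl6, while for S100b they lie between 128 and 394 CPM, above the core maximum of 19.3 CPM.

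The protein synthesis machinery of mitochondria followed the respiratory chain. Of 77 mitochondrial ribosomal protein genes, 48 (62.3%) were higher in PWK and 4 (5.19%) lower, median 0.34. With log2 Xist at 9, the counts were 66 and 3, and at 1 they were 10 and 16. Without the liver-rich libraries, 34 were higher and 5 lower, median 0.11. Mrps36, since also described as a part of the oxoglutarate dehydrogenase complex, was higher with 19.2 to 74.2 CPM in PWK libraries, median 38.1, against 10.4 to 32.3 CPM, median 16.9, in core libraries (log2 fold change 1.25 ± 0.18 SE, adjusted p = 6.28e-08). Mrps17, a small-subunit protein, went the other way, with 12.1 to 20.3 CPM in PWK libraries, median 14.6, against 29.5 to 42.4 CPM, median 35.0, in core libraries (log2 fold change -1.13 ± 0.09 SE, adjusted p = 9.98e-17). It was lower in PWK at either level of Xist, and also against Cast, NZO and WSB (log2 fold changes -1.31, -0.93 and -1.34). Lyrm7, a factor needed to assemble complex III, was above each core library, with 8.94 to 23.9 CPM in PWK libraries, median 14.4, against 0.648 to 4.87 CPM, median 1.92 (log2 fold change 2.87 ± 0.16 SE, adjusted p = 2.19e-22).

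Genes that make fat from glucose were higher in PWK in part. Of 23 genes of de novo lipogenesis, 11 (47.8%) were higher and 1 lower, median 0.59, with 14 and 0 at a log2 Xist of 9 and 2 and 2 at 1. Without the libraries rich in liver markers, 6 were higher and 2 lower, median 0.16, against 18.9% and 15.5% of all genes. Elovl6, which lengthens newly made palmitate, had 2238, 3433, 218, 71.3, 64.8, 1089, 3111 and 113 CPM in PWK replicates 1, 2, 3, 4, 5, 6, 7 and 9, against 24.7 to 1245 CPM, median 80.3, in core libraries. PWK replicates 1, 2 and 7 were above each core library and the remaining PWK libraries overlapped the core range. Its log2 fold change was 3.12 ± 0.53 (SE, adjusted p = 1.90e-06), 3.65 at a log2 Xist of 9 (adjusted p = 1.60e-12) and 0.46 at 1 (adjusted p = 0.422). Mlxipl, the carbohydrate-sensing transcription factor ChREBP, was higher by 1.44 ± 0.25 on the log2 scale (SE, adjusted p = 4.40e-06).

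The enzymes upstream of Elovl6 differed less firmly. Acly, which makes cytosolic acetyl-CoA, had 189 to 6548 CPM in PWK libraries, median 1192, against 286 to 6873 CPM, median 607, in core libraries (log2 fold change 1.32 ± 0.43 SE, adjusted p = 0.00919). Without PWK replicate 2 it was 0.90 (adjusted p = 0.101), with NOD left out of the reference 1.02 (adjusted p = 0.0633), and without the libraries rich in liver markers 0.57 (adjusted p = 0.409). Fasn, the fatty acid synthase, had 3338 to 30859 CPM in PWK libraries, median 9585, against 2262 to 25462 CPM, median 5090 (log2 fold change 0.93 ± 0.38 SE, adjusted p = 0.0392). The log2 fold change of Fasn was 0.33 (adjusted p = 0.611) without the liver-rich libraries, 0.63 (adjusted p = 0.205) with NOD left out of the reference, 0.83 (adjusted p = 0.0896) without the libraries rich in duct markers and 0.70 (adjusted p = 0.0647) with Xist as a covariate. Leaving out PWK replicate 1, 2 or 7 ended that call too, with log2 fold changes of 0.84, 0.64 and 0.72 (adjusted p = 0.0841, 0.20 and 0.143). Scd1, the main desaturase, had 37708 to 106194 CPM in PWK libraries, median 82146, against 38389 to 121270 CPM, median 80595 (log2 fold change -0.08 ± 0.15 SE, adjusted p = 0.678), with estimates that share reads with its paralogs. Of 16 triglyceride synthesis genes tested, 5 were higher and 3 lower, or 2 and 3 without the liver-rich libraries. Dgat1, which adds the last fatty acid, was higher by 0.66 ± 0.14, and Mogat2, which uses monoacylglycerol instead, had a log2 fold change of -1.43 ± 0.28 (SE, adjusted p = 0.000121 and 2.20e-05).

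Glycolysis and glycogen genes were higher in 17 of 27 cases (63.0%) and lower in 0, median 0.55, with 19 and 0 at a log2 Xist of 9 and 3 and 1 at 1. In the fit that omits the liver-rich libraries, 6 were higher and 0 lower, against 18.9% and 15.5% of all genes. Ldhb, the lactate dehydrogenase subunit of oxidative tissues, had 114 to 381 CPM in PWK libraries, median 184, against 27.0 to 253 CPM, median 54.1, in core libraries (log2 fold change 1.60 ± 0.14 SE, adjusted p = 1.99e-14). Pygl, the liver-type glycogen phosphorylase, and Ppp1r3b, which targets a phosphatase to glycogen, were higher by 1.32 ± 0.23 and 1.64 ± 0.37 on the log2 scale (SE, adjusted p = 3.83e-06 and 0.000208). The log2 fold change of Ppp1r3b was 0.88 (adjusted p = 0.0813) without the libraries rich in liver markers. Of 25 genes of branched-chain amino acid breakdown, 12 (48.0%) were higher and 1 lower, median 0.42. At a log2 Xist of 9, 19 were higher and 0 lower, and at 1, 2 were higher and 3 lower, median 0.02. Without the liver-rich libraries, 5 were higher and 2 lower, median 0.14, so the share of higher genes was near the 18.9% of all genes there. Bcat1, which takes the amino group off these amino acids in the cytosol, had 12.6 to 42.1 CPM in PWK libraries, median 18, against 1.71 to 24.4 CPM, median 7.37 (log2 fold change 1.5 ± 0.27 SE, adjusted p = 8.48e-06).

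Insulin signalling and glucose uptake genes stayed near the background, with 8 of 29 higher (27.6%), 3 lower and a median of 0.05. Slc2a4, the insulin-responsive glucose transporter, had 82.7 to 369 CPM in PWK libraries, median 191, against 67.6 to 306 CPM, median 122 (log2 fold change 0.62 ± 0.19 SE, adjusted p = 0.00631), and 0.45 without PWK replicate 2 (adjusted p = 0.0598). Hk2, a hexokinase, and Pik3r1, the regulatory subunit of phosphoinositide kinase, were higher by 0.74 ± 0.19 and 0.79 ± 0.17 on the log2 scale (SE, adjusted p = 0.000931 and 0.000113). Leaving out the liver-rich libraries, Slc2a4 and Hk2 were at 0.31 and 0.37 (adjusted p = 0.289 and 0.167).

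The genes that define a fat cell did not move as a group. Of 24 mature adipocyte markers, 4 were higher and 4 lower in PWK, with a median log2 fold change of 0.00. Adipoq had a median of 2870 CPM in PWK libraries and 2172 CPM in core libraries (log2 fold change 0.41 ± 0.21 SE, adjusted p = 0.106). Pparg, the master regulator of fat cell formation, had 116 to 235 CPM in PWK libraries, median 164, and 77.1 to 212 CPM, median 149, in core libraries (log2 fold change 0.31 ± 0.12 SE, adjusted p = 0.0293). That call ended when PWK replicate 2, 7 or 9 was left out (0.24, 0.26 and 0.25, adjusted p = 0.122, 0.0998 and 0.101). It ended as well with B6 or NOD left out of the reference (0.26 and 0.20, adjusted p = 0.088 and 0.205) and without the libraries rich in liver or duct markers (0.19 and 0.28, adjusted p = 0.317 and 0.063). Cidec, which fuses lipid droplets into the single droplet of white fat cells, was lower, with 1076 to 1887 CPM in PWK libraries, median 1454, against 947 to 3448 CPM, median 2467 (log2 fold change -0.70 ± 0.16 SE, adjusted p = 0.000356). Aqp7, the glycerol channel, was higher by 0.57 ± 0.20 on the log2 scale (SE, adjusted p = 0.0146).

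Among secreted products, Lep, the satiety hormone leptin, had 121, 234, 3566, 1083, 1077, 191, 173 and 1281 CPM in PWK replicates 1, 2, 3, 4, 5, 6, 7 and 9, against 427 to 3130 CPM, median 1446, in core libraries. The 4 PWK libraries with high Xist were below each core library, and 1 of the other 4 was above each of them. The log2 fold change was -0.69 ± 0.57 (SE, adjusted p = 0.333) and was -2.26 at a log2 Xist of 9 (adjusted p = 0.0163) and 0.02 at 1 (adjusted p = 0.987). The difference in slope for Lep had an adjusted p of 0.152. Retn, the adipokine resistin, had 263 to 658 CPM in PWK libraries, median 485, and 252 to 1195 CPM, median 604, in core libraries (log2 fold change -0.34 ± 0.23 SE, adjusted p = 0.225). Cfd, the complement factor adipsin, had 514 to 6663 CPM in PWK libraries, median 2726, and 442 to 3764 CPM, median 1645 (log2 fold change 0.84 ± 0.31 SE, adjusted p = 0.0212), a call that ended without PWK replicate 1, 2 or 7 (0.72, 0.60 and 0.67, adjusted p = 0.0673, 0.128 and 0.0913). Cfd was at 0.38 (adjusted p = 0.445) without the liver-rich libraries and at 0.64 (adjusted p = 0.0601) without the duct-rich ones. Vegfa, the vessel growth factor, was higher with 250 to 499 CPM in PWK libraries, median 355, against 93.5 to 253 CPM, median 174 (log2 fold change 1.04 ± 0.12 SE, adjusted p = 7.08e-11).

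Glucocorticoid-related genes gave a mixed picture, with 2 of 19 higher, 3 lower and a median of 0.07. Hsd11b1, the enzyme that regenerates active glucocorticoid inside cells, had 235, 368, 60.4, 102, 64.5, 159, 331 and 174 CPM in PWK replicates 1, 2, 3, 4, 5, 6, 7 and 9, against 18.7 to 100 CPM, median 36.3, in core libraries. PWK replicates 3 and 5 were inside the core range and the other 6 were above it. The log2 fold change was 2.37 ± 0.20 (SE, adjusted p = 6.44e-15), 3.17 at a log2 Xist of 9 and 1.14 at 1 (adjusted p of the difference in slope 0.000153). The metallothionein genes Mt1 and Mt2, which glucocorticoids and metals are known to induce, had log2 fold changes of -1.65 ± 0.42 and -1.80 ± 0.59 (SE, adjusted p = 0.000944 and 0.00977). Mt2 was at -1.48 (adjusted p = 0.104) without the libraries rich in liver markers and at -1.12 (adjusted p = 0.0739) without those rich in duct markers. Gpx3, the secreted glutathione peroxidase, was higher by 1.22 ± 0.20 on the log2 scale (SE, adjusted p = 1.83e-06). Gstm2, a glutathione transferase, was below each core library, with 20.6 to 43.0 CPM in PWK libraries, median 29.0, against 109 to 192 CPM, median 134 (log2 fold change -2.24 ± 0.15 SE, adjusted p = 2.00e-18). Cyp7b1, an oxysterol hydroxylase, had 2.13 to 18.2 CPM in PWK libraries, median 13.4, against 0.524 to 3.96 CPM, median 1.51 (log2 fold change 2.66 ± 0.32 SE, adjusted p = 8.01e-10). Cyp2e1, the ethanol-inducible P450, had 243 to 1709 CPM in PWK libraries, median 1195, and 147 to 2908 CPM, median 1063 (log2 fold change 0.28 ± 0.32 SE, adjusted p = 0.497). Glo1, which detoxifies methylglyoxal, had a log2 fold change of -0.52 ± 0.07 (SE, adjusted p = 5.22e-09).

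**Figure D4:**
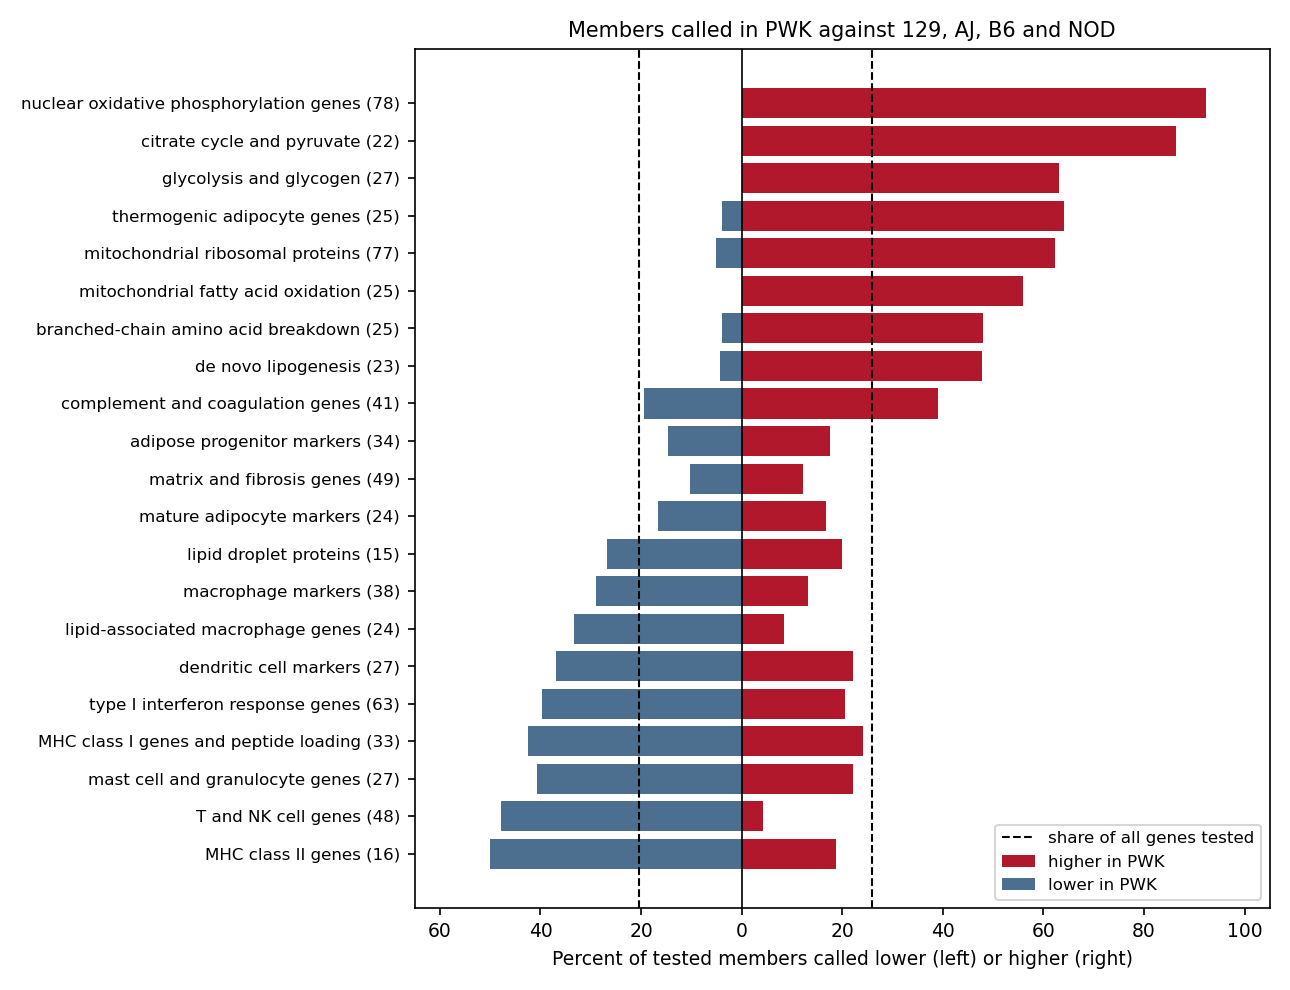
Percent of the tested genes of each list that were called higher (right) or lower (left) in PWK, 1 bar pair per list, with dashed lines at the share over all 18603 genes. The bars of oxidative phosphorylation (92.3% higher) and citrate cycle genes (86.4% higher) pass the dashed line at 25.9%, and those of MHC class II (50% lower) and T and NK cell genes (47.9% lower) pass the one at 20.5%.

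T and NK cell genes were lower in PWK more often than genes at large, while B cell genes were not. Of 48 T and NK cell genes tested, 23 (47.9%) were lower and 2 (4.17%) higher, against 20.5% and 25.9% of all genes, with a median log2 fold change of -0.70. The mean log2 CPM of the list was -1.28 to -0.21 in PWK libraries, median -0.63, against -0.44 to 0.67, median -0.03, in core libraries. These levels are low and the ranges overlap. At log2 Xist 9, the count of lower genes was 23 and at 1 it was 14, and without the libraries rich in liver markers 14 were lower. Of 36 B and plasma cell genes, 3 were higher and 5 lower, median 0.15. Il1rl1, the receptor of an alarm cytokine, found on regulatory T cells, innate lymphoid cells and mast cells, had 1.32 to 4.96 CPM in PWK libraries, median 3.52, against 4.11 to 18.8 CPM, median 9.10, in core libraries (log2 fold change -1.27 ± 0.20 SE, adjusted p = 3.26e-07). Il7r, the receptor that keeps resting lymphocytes alive, had a log2 fold change of -1.17 ± 0.36 (SE, adjusted p = 0.0064) and of -0.73 (adjusted p = 0.132) without the libraries rich in liver markers. Il18r1, a subunit of a cytokine receptor of T and NK cells, was higher with 4.27 to 10.2 CPM in PWK libraries, median 7.30, against 1.19 to 7.77 CPM, median 3.19 (log2 fold change 1.15 ± 0.21 SE, adjusted p = 1.17e-05).

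Antigen presentation genes were lower on balance. Of 16 MHC class II genes, 8 (50%) were lower and 3 higher, median -0.57, and of 33 MHC class I and peptide loading genes, 14 (42.4%) were lower and 8 higher, median -0.13. Without the liver-rich libraries, 5 class II genes were lower and 2 higher, and 12 class I genes were lower and 7 higher. These genes are among the most variable of the mouse genome, 4 and 19 of them share reads with others, and reads of a distant allele may not all be counted; the part of this in the values was not tested. H2-Eb1, the beta chain of the class II molecule H2-E, had 17.5, 5.09, 3.78, 2.84, 3.07, 2.74, 3.71 and 3.13 CPM in PWK replicates 1, 2, 3, 4, 5, 6, 7 and 9, against 40.3 to 349 CPM, median 142, in core libraries. Each PWK library was below each core library (log2 fold change -4.65 ± 0.33 SE, adjusted p = 4.14e-18). The level was lower in WSB than in PWK, with means of 19, 432 and 1.57 CPM in Cast, NZO and WSB and log2 fold changes of PWK over them of -1.85, -6.36 and 1.73 (adjusted p = 3.18e-06, 4.29e-21 and 2.19e-05). Cd74, the invariant chain that escorts class II molecules and is not itself an MHC gene, had 122 to 276 CPM in PWK libraries, median 210, against 160 to 917 CPM, median 367 (log2 fold change -0.95 ± 0.21 SE, adjusted p = 0.000166).

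Interferon response genes were lower more often than higher, but in both directions. Of 63 such genes tested, 25 (39.7%) were lower in PWK and 13 (20.6%) higher, median -0.36. The mean log2 CPM of the list was 2.80 to 3.60 in PWK libraries, median 2.98, against 3.03 to 4.32, median 3.52, in core libraries. At a log2 Xist of 9, 22 were lower and 9 higher, at 1, 15 and 10, and without the libraries rich in liver markers 15 and 10. Ifi27l2a, a gene strongly induced by interferon, had 12.1, 7.24, 0.707, 0.168, 0.110, 0, 0 and 4.62 CPM in PWK replicates 1, 2, 3, 4, 5, 6, 7 and 9, against 181 to 760 CPM, median 452, in core libraries. It was far below each of them (log2 fold change -7.20 ± 0.65 SE, adjusted p = 5.40e-14), and means of 762, 480 and 1140 CPM in Cast, NZO and WSB were also far above PWK. Its relative Ifi27 was also below each core library, with 34.7 to 91.2 CPM in PWK libraries, median 49.2, against 162 to 309 CPM, median 230 (log2 fold change -2.07 ± 0.22 SE, adjusted p = 1.47e-11). Cxcl9, a chemokine that draws T cells, had 6.71 to 14.4 CPM in PWK libraries, median 13.9, against 10.6 to 73.4 CPM, median 35.6 (log2 fold change -1.55 ± 0.29 SE, adjusted p = 1.02e-05).

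The antiviral Mx genes went the other way. Most classical laboratory strains are known to carry defective alleles of both, while some wild-derived strains carry intact ones. Mx2 had 8.21 to 28.9 CPM in PWK libraries, median 14.0, against 1.31 to 3.65 CPM, median 1.92, in core libraries (log2 fold change 3.0 ± 0.30 SE, adjusted p = 3.46e-12). Mx1 had 4.10 to 10.3 CPM in PWK libraries, median 5.58, against 0.415 to 3.64 CPM, median 1.71 (log2 fold change 1.94 ± 0.40 SE, adjusted p = 5.40e-05). For both, each PWK library was above each core library. Among the remaining strains, Mx2 had means of 40.2, 0.0643 and 1.14 CPM in Cast, NZO and WSB, and Mx1 had 7.33, 44.9 and 0.491 CPM. PWK was thus below NZO for Mx1 (log2 fold change -2.78, adjusted p = 4.81e-05) and above it for Mx2 (8.06, adjusted p = 1.63e-15).

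Oas1c, a member of the oligoadenylate synthetase cluster of antiviral genes, was near 0 in PWK, with 5 counts over its 8 libraries and at most 3 in 1 library. It had 0 to 0.0921 CPM in PWK libraries, median 0, against 1.36 to 3.60 CPM, median 2.22, in core libraries. The ratio of the core mean to the pooled PWK level was 149 (95% interval 63.7 to 458, exact Poisson, counting error only). The 250 bases before its start, at chr5:120812515-120812764 of GRCm38.p6 on the minus strand, are shown because the data bear on this gene and because they hold the letters of an interferon-stimulated response element, which are GAAA, 2 bases of any kind and GAAA again, searched on both strands. The matches are in capitals.
Oas1c: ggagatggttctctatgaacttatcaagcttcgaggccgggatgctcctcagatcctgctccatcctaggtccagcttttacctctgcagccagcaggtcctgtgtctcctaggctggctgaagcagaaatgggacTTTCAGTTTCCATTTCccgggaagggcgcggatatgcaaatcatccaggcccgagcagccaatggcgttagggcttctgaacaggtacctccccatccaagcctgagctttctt
The capitals cover 2 overlapping matches on the strand opposite to the gene. The sequence is that of the reference build, and the PWK allele was not analysed here. Such a match was found in 20 of 50 interferon list promoters in the RefSeq table (40.0%) and in 821 of all 27025 promoters (3.04%).

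**Figure D5:**
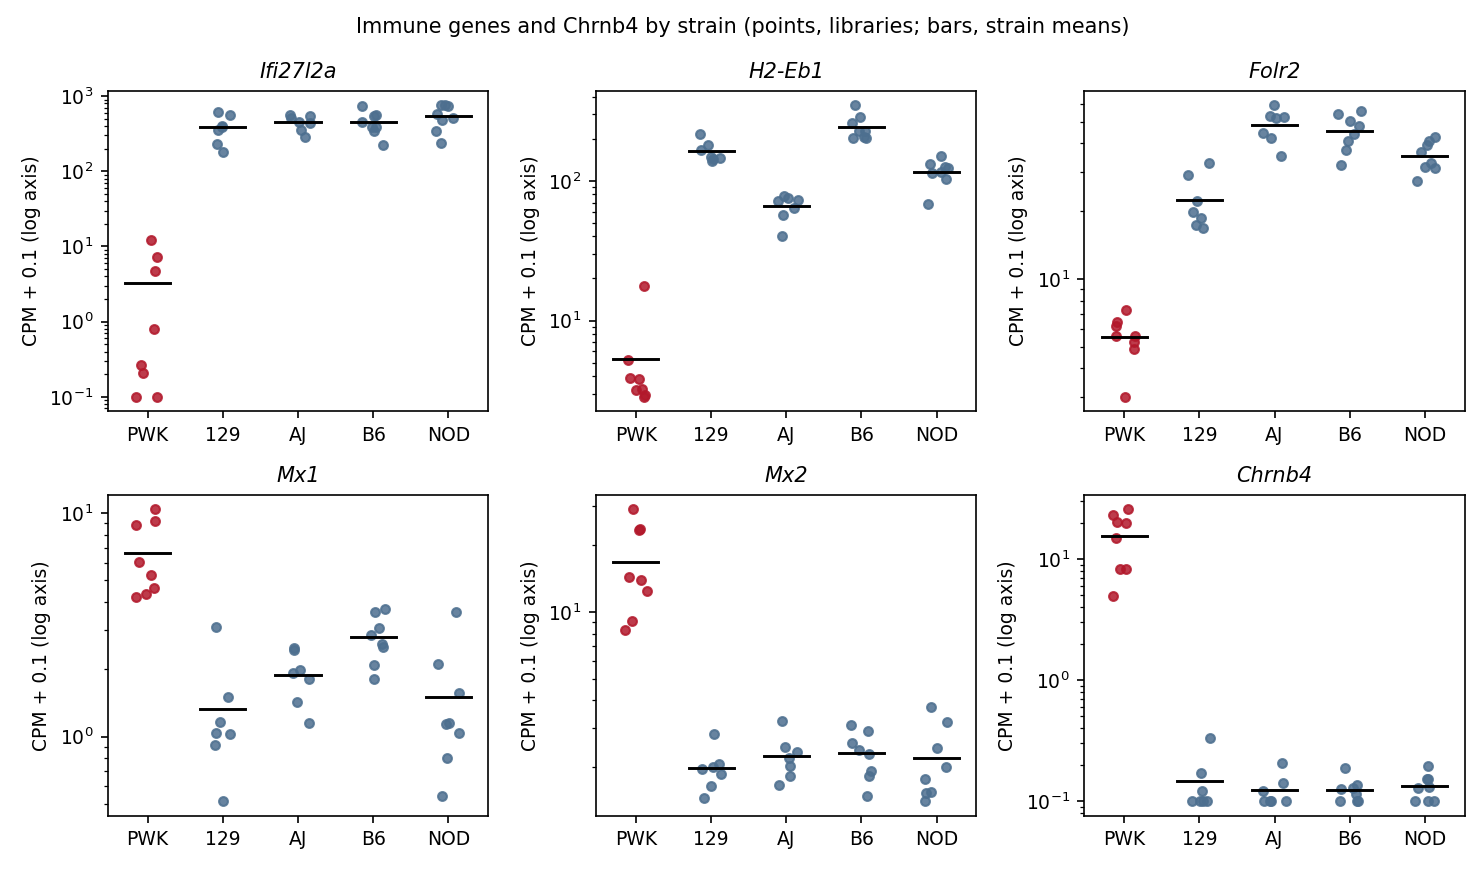
CPM of 6 genes in each library (log axis, 0.1 added), with PWK left of 129, AJ, B6 and NOD, 1 point per library. PWK points lie below all core points for Ifi27l2a, H2-Eb1 and Folr2 and above them for Mx1, Mx2 and Chrnb4, with PWK replicate 1 at 17.5 CPM as the highest PWK point of H2-Eb1.

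Macrophage genes were lower in part. Of 38 markers tested, 11 (28.9%) were lower in PWK and 5 higher, median -0.24, against 20.5% and 25.9% of all genes. The counts were 20 lower and 2 higher at a log2 Xist of 9 and 4 lower and 6 higher at 1. In the fit that omits the liver-rich libraries, 5 were lower and 4 higher, against 15.5% and 18.9% of all genes, so the markers were not lower more often than genes at large there. Folr2, a folate receptor of tissue-resident macrophages, was below each core library, with 2.89 to 7.20 CPM in PWK libraries, median 5.49, against 16.7 to 59.1 CPM, median 38.3 (log2 fold change -2.74 ± 0.17 SE, adjusted p = 3.14e-20). Cast had a mean of 6.23 CPM of Folr2 and WSB 1.67 CPM, so that PWK did not pass the test against Cast (log2 fold change -0.20, adjusted p = 0.411) and was higher than WSB (1.67, adjusted p = 2.38e-10). Ms4a7, a membrane protein of macrophages, had 0.0774 to 2.33 CPM in PWK libraries, median 0.535, against 1.61 to 18 CPM, median 8.08 (log2 fold change -3.08 ± 0.35 SE, adjusted p = 7.65e-11).

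Genes of lipid-laden macrophages were lower in 8 of 24 cases (33.3%) and higher in 2, median -0.39. Without the liver-rich libraries, 5 were lower and 2 higher, median -0.16. Lgals3, the galectin of activated macrophages, had 8.32 to 97.8 CPM in PWK libraries, median 31.6, against 33.5 to 409 CPM, median 88.4 (log2 fold change -1.43 ± 0.40 SE, adjusted p = 0.00254), and a log2 fold change of -0.93 (adjusted p = 0.0892) without the libraries rich in liver markers. The lysosomal protease gene Ctsl had a log2 fold change of -0.82 ± 0.21 (SE, adjusted p = 0.0011). Of 18 genes of a list of obesity-induced fat mass expansion, 6 (33.3%) were lower and 3 higher, median -0.57.

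Dendritic cell markers were called in both directions, with 10 of 27 lower (37.0%) and 6 higher, median -0.19, or 6 and 6 without the liver-rich libraries. Cd209a, a lectin of monocyte-derived dendritic cells, had 0.0554 to 0.659 CPM in PWK libraries, median 0.482, against 0.0883 to 17.4 CPM, median 8.87 (log2 fold change -3.43 ± 0.31 SE, adjusted p = 5.17e-14). Irf4, a transcription factor that also acts in fat cells, was higher with 11.1 to 113 CPM in PWK libraries, median 31.7, against 7.31 to 39.2 CPM, median 13.8 (log2 fold change 1.60 ± 0.35 SE, adjusted p = 0.000145). Some mast cell genes were lower. Mcpt4, Tpsb2 and Cma1, proteases stored in connective tissue mast cells, had log2 fold changes of -2.41 ± 0.34, -1.71 ± 0.25 and -1.62 ± 0.28 (SE, adjusted p = 3.07e-08, 1.09e-07 and 2.57e-06). Mcpt4 had 0.399 to 2.60 CPM in PWK libraries, median 2.29, against 3.22 to 28.6 CPM, median 8.13. For Mcpt4 and Tpsb2 the PWK and core ranges did not overlap. Over the whole list of 27 mast cell and granulocyte genes, 11 (40.7%) were lower and 6 higher, median -0.33. Ltf, the neutrophil and gland protein lactoferrin, had 392 CPM in PWK replicate 6, 12.7 CPM in replicate 1 and at most 0.103 CPM in the other 6, against 0 to 69.9 CPM in core libraries, and its log2 fold change of 5.90 fell to 1.16 without replicate 6 (adjusted p = 0.435).

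Other immune genes differed singly. Of 25 inflammasome and pyroptosis genes, 6 were higher and 7 lower. Casp12, an inflammatory caspase, was below each core library, with 11.9 to 20 CPM in PWK libraries, median 15.3, against 25.2 to 48.3 CPM, median 30.6 (log2 fold change -1.07 ± 0.09 SE, adjusted p = 7.82e-15). Nlrp1a, a sensor that forms an inflammasome, had 3.44 to 7.47 CPM in PWK libraries, median 5.28, against 0 to 6.47 CPM, median 0.691 (log2 fold change 3.37 ± 0.30 SE, adjusted p = 3.29e-14). Cxcl13, the chemokine that gathers B cells, had 3.50 to 46.9 CPM in PWK libraries, median 17.9, against 0.618 to 8.42 CPM, median 2.35 (log2 fold change 2.71 ± 0.55 SE, adjusted p = 4.47e-05). Of 41 complement and coagulation genes tested, 16 (39.0%) were higher and 8 lower, median 0.15, or 12 and 5 without the liver-rich libraries, and the summed liver markers, which include genes made with them in liver, moved between libraries as given above. Serpina3n, an acute phase protease inhibitor, was lower with 55.4 to 213 CPM in PWK libraries, median 90.2, against 114 to 832 CPM, median 431 (log2 fold change -1.75 ± 0.30 SE, adjusted p = 3.69e-06).

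Matrix and fibrosis genes did not differ as a group over all libraries, with 6 of 49 higher (12.2%), 5 lower (10.2%) and a median of -0.03, under the background of 25.9% and 20.5%. By the slopes on Xist they went the opposite way to the respiratory chain. Of the PWK libraries with high Xist, the liver-rich replicates 2 and 7 had list means of 5.61 and 5.69 log2 CPM. Replicates 1 and 6 had 6.52 and 6.67, inside the core range of 6.35 to 7.09. Without the liver-rich libraries, 12 genes were higher and 3 lower, median 0.20, against 18.9% and 15.5% of all genes. At log2 Xist 9, 27 were lower in PWK and 4 higher, median -0.43, against 21.7% and 25.5% of all genes, and at 1, 5 were lower and 14 higher, median 0.30. The difference in slope passed the test in 22 genes with PWK relatively lower at high Xist, in 1 gene the other way, and in 7.36% of all genes in that first sense. Adipose progenitor markers (13 of 34 lower and 3 higher at 9, 2 lower and 9 higher at 1), mesothelial markers (8 of 20 lower and 1 higher at 9, 0 lower and 6 higher at 1) and Wnt and TGF-beta pathway genes (23 of 63 lower and 4 higher at 9, 4 lower and 15 higher at 1) behaved likewise. Without the liver-rich libraries, 3 progenitor markers were higher and 3 lower, and 2 mesothelial markers were higher and 0 lower. Of the Wnt and TGF-beta pathway genes, 10 were then higher and 4 lower. All levels are shares of a library, so a rise of one group and a fall of the rest cannot be told apart.

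Single matrix genes differed over all libraries. Spon1, a secreted adhesion protein, had 40.4 to 353 CPM in PWK libraries, median 166, against 17.5 to 318 CPM, median 32.9 (log2 fold change 1.58 ± 0.40 SE, adjusted p = 0.000848). Fbln1, a protein of elastic fibres, was higher by 0.91 ± 0.23 and Col4a4, a basement membrane collagen, by 1.12 ± 0.33 on the log2 scale (SE, adjusted p = 0.000983 and 0.00374). Col18a1, the collagen that releases endostatin, had a log2 fold change of -0.89 ± 0.24 (SE, adjusted p = 0.0016). Anxa3, an annexin of progenitor subsets, was lower with 23.8 to 49.5 CPM in PWK libraries, median 34.5, against 44.8 to 136 CPM, median 84.4 (log2 fold change -1.25 ± 0.13 SE, adjusted p = 1.21e-11). Pdgfra, the growth factor receptor that marks progenitors, was higher by 0.49 ± 0.13 (SE, adjusted p = 0.00222). Mmp9, a gelatinase of leukocytes, had a log2 fold change of -2.35 ± 0.57 (SE, adjusted p = 0.000603), and Synpo2, an actin-bundling protein of smooth muscle, of -1.49 ± 0.29 (SE, adjusted p = 2.25e-05).

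Genes of other organs were called too, in step with the markers above. Of 20 liver markers, 15 were higher in PWK and 1 lower, median 2.13, and 1 and 1 without the libraries rich in them. Those libraries were picked by the sum of these same markers, so a smaller count was built into that fit. The count of higher genes was 8 without PWK replicate 2, 5 without PWK replicate 7, and 6 or 9 with 129 or NOD left out of the reference. The liver protein hemopexin, Hpx, had 0.445 to 82.0 CPM in PWK libraries, median 6.88, against 0.0241 to 32.1 CPM, median 1.73, and its log2 fold change of 3.08 was 0.61 without those libraries (adjusted p = 0.526). Of 20 skeletal muscle markers, 0 were higher and 9 lower by edgeR, median -2.01, with 0 higher as well at an unadjusted p under 0.05 and with DESeq2. Summed muscle markers were at 2230 and 4230 CPM in 2 AJ libraries. Without the libraries over 300 CPM of muscle markers, 1 was higher and 7 lower, median -0.81. Here too the libraries were picked by the same markers, so a smaller difference was built in. With AJ left out of the reference 3 were lower, and with NOD left out 14. Myh4, a fast myosin, had 0 to 0.204 CPM in PWK libraries against 0 to 786 CPM in core libraries (log2 fold change -4.96 ± 2.11 SE, adjusted p = 0.0488), a call that ended without any 1 of PWK replicates 1 to 7, with values of -5.25 to -4.75 and adjusted p of 0.0594 to 0.0699. With AJ left out of the reference Myh4 was at -2.79 (adjusted p = 0.34), with B6 left out at -4.90 (adjusted p = 0.0813), and without the liver-rich libraries at -4.56 (adjusted p = 0.13).

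Beyond the lists, a set of single genes was nearly on or off by strain. Chrnb4, a subunit of the nicotinic acetylcholine receptor, had 4.81 to 25.6 CPM in PWK libraries, median 17.2, against 0 to 0.232 CPM, median 0.0185, in core libraries (log2 fold change 8.87 ± 0.41 SE, adjusted p = 6.12e-26). Cast was the other strain with Chrnb4 at such levels, mean 9.25 CPM, and PWK did not pass the test against it (log2 fold change 0.75, adjusted p = 0.227). Il12a, the alpha chain of an interleukin that drives T cell responses, had 2.61 to 9.99 CPM in PWK libraries, median 4.38, against 0 to 0.214 CPM, median 0.0409, in core libraries (log2 fold change 6.56 ± 0.50 SE, adjusted p = 1.06e-16). Il12a was one of 87 genes (0.468% of those tested) in which each PWK library was above each of the 53 libraries of the other 7 strains.

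Further genes above all 53 libraries had known or partly known roles. Slc7a13, an amino acid transporter described in kidney, had 8 to 15.7 CPM in PWK libraries, median 11.3, against 0.0524 to 1.19 CPM, median 0.394, in core libraries (log2 fold change 4.65 ± 0.36 SE, adjusted p = 2.18e-16). B4galnt2, a glycosyltransferase whose expression in vessel or gut is known to vary between mouse strains, had 4.75 to 11.0 CPM in PWK libraries, median 6.31, against 0 to 3.12 CPM, median 0.0862 (log2 fold change 4.34 ± 0.65 SE, adjusted p = 1.76e-07). Ctnnd1, a catenin that holds cadherins at the membrane, had 18.4 to 26.4 CPM in PWK libraries, median 22.7, against 1.4 to 4.98 CPM, median 2.21 (log2 fold change 3.25 ± 0.10 SE, adjusted p = 1.32e-34). Of these, Ctnnd1 varied least between PWK libraries. The non-coding RNA gene Platr25 and the gene Rprml had log2 fold changes of 5.80 ± 0.34 and 3.05 ± 0.49 (SE, adjusted p = 4.11e-21 and 6.87e-07).

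Slc27a6, a fatty acid transport protein best known from heart, had 4.20 to 13.9 CPM in PWK libraries, median 10.3, against 0.295 to 3.55 CPM, median 0.660, in core libraries (log2 fold change 3.36 ± 0.20 SE, adjusted p = 5.46e-21). Amph, the endocytosis protein amphiphysin, and Armc2, known from sperm flagella, were higher by 3.34 ± 0.27 and 3.22 ± 0.26 on the log2 scale (SE, adjusted p = 8.84e-16 and 9.14e-16), each with PWK libraries above all core libraries. Cast had a mean of 10.7 CPM of Amph, and PWK did not pass the test against it (log2 fold change 0.16, adjusted p = 0.776). Against NZO and WSB, Amph was higher in PWK (log2 fold changes 5.94 and 2.19).

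In the lower direction, Tph2, the neuronal enzyme of serotonin synthesis, had 4 counts over all 8 PWK libraries, at most 0.0584 CPM, against 0.253 to 60.1 CPM, median 2.15, in core libraries. The core mean was 487 times the pooled PWK level (95% interval 190 to 1786, counting error only). Cast and WSB were as low, with means of 0.00412 and 0.0216 CPM, and NZO was high with a mean of 63.4 CPM. Kcnj15, a potassium channel, had 0.582 to 12.2 CPM in PWK libraries, median 1.93, against 12.5 to 383 CPM, median 70.6, in core libraries (log2 fold change -4.68 ± 0.63 SE, adjusted p = 1.39e-08). Its means of 4.37, 3.41 and 1.45 CPM in Cast, NZO and WSB were close to PWK, and none of the 3 comparisons passed the test (adjusted p = 0.77, 0.885 and 0.0978).

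St6galnac5, a sialyltransferase of brain gangliosides, had 0 to 0.70 CPM in PWK libraries, median 0.011, against 2.21 to 25.7 CPM, median 8.82, in core libraries (log2 fold change -6.11 ± 0.56 SE, adjusted p = 9.23e-14). Cast was low for it as well with a mean of 0.16 CPM, while WSB had 90.5 CPM. Sucnr1, the receptor through which extracellular succinate acts on fat cells and macrophages, had 0.387 to 1.68 CPM in PWK libraries, median 1.26, against 12.2 to 67.7 CPM, median 31.6, in core libraries (log2 fold change -4.94 ± 0.37 SE, adjusted p = 3.75e-17). It was lower in PWK than in Cast, NZO and WSB too (log2 fold changes -2.81, -5.04 and -3.93). Pla2g2e, a secreted phospholipase of fat cells known to be induced by obesity, had 0.106 to 3.16 CPM in PWK libraries, median 0.332, against 4.32 to 25 CPM, median 10.9 (log2 fold change -4.20 ± 0.49 SE, adjusted p = 2.83e-10). Cd300ld, a receptor of myeloid cells, and Wfdc21, a small secreted protein, had log2 fold changes of -3.57 ± 0.37 and -3.43 ± 0.56 (SE, adjusted p = 5.98e-12 and 1.01e-06).

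In 81 genes (0.435%) each PWK library was below each of the 53 libraries of the other strains. Dfna5, the gasdermin E gene that executes a form of pyroptosis, had 0.394 to 0.851 CPM in PWK libraries, median 0.511, against 4.70 to 18.1 CPM, median 8.25, in core libraries (log2 fold change -3.93 ± 0.18 SE, adjusted p = 1.78e-26). Acot6, a peroxisomal acyl-CoA thioesterase, had 0.317 to 0.849 CPM in PWK libraries, median 0.616, against 4.21 to 6.88 CPM, median 5.64 (log2 fold change -3.17 ± 0.19 SE, adjusted p = 6.20e-21). Lgals4, a galectin best known from gut, was at 1.96 to 4.22 CPM in PWK libraries, median 2.71, against 6.99 to 19.3 CPM, median 13.1 (log2 fold change -2.17 ± 0.18 SE, adjusted p = 2.43e-15). The zinc finger genes Zfp605 and Zfp945 had log2 fold changes of -6.88 ± 0.26 and -1.76 ± 0.12 (SE, adjusted p = 2.15e-30 and 9.47e-19). Firre, an X-linked non-coding RNA, was below each core library with a log2 fold change of -3.43 ± 0.09 (SE, adjusted p = 6.08e-37).

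Other genes were near 0 in PWK. There were 18 genes with at most 3 counts in each PWK library and a core mean of at least 1 CPM, 10 of them outside the predicted genes, and 0 genes of the converse kind. The table holds no gene with reads in fewer than 30 libraries, which limits that converse count. Trp53cor1, a long non-coding RNA, had 3 counts over the PWK libraries, against 1.62 to 7.77 CPM in core libraries (ratio of core mean to pooled PWK level 390, 95% interval 134 to 1893). Gabrq, an X-linked GABA receptor subunit, had 4 counts over the PWK libraries and 0 to 3.88 CPM in core libraries (ratio 123, 95% interval 47.9 to 450). Pvalb, the muscle calcium buffer parvalbumin, and Defb42, a defensin of the male genital tract, had medians of 0.0588 and 0.0701 CPM in core libraries, with highest values of 39.9 and 31.8 CPM. Their log2 fold changes of -5.07 and -5.32 rest on few core libraries, and with AJ left out of the reference Pvalb was at -3.47 (adjusted p = 0.0736).

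Some of the largest differences lie in genes whose reads are shared. Of the tested genes, 4105 had estimates that were not whole numbers in over 50 percent of libraries, which marks reads split between near-identical genes. Of these, 2058 were called, a share not far from the 46.5% of all genes tested. Rps12, a cytosolic ribosomal protein gene, had 102 to 164 CPM in PWK libraries, median 125, against 1.09 to 5.74 CPM, median 2.11, in core libraries (log2 fold change 5.77 ± 0.20 SE, adjusted p = 9.23e-32). Of 73 cytosolic ribosomal protein genes, 32 were higher and 7 lower in PWK, and 61 of them share reads. Amd2 and Rhbg had log2 fold changes of 6.24 and 5.29, and Trim12c, Lctl, Xlr3b and Tmem254b of -7.00, -5.43, -5.10 and -4.16. For these genes the level of the single gene is uncertain, since reads may be assigned to another copy in a strain whose sequence differs from the build.

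The mitochondrially encoded mt-Co2, a core subunit of complex IV, was looked at alone and summed with genes of a stretch of chromosome 1. It had 5.99 to 83.7 CPM in PWK libraries, median 33.0, against 1269 to 3706 CPM, median 1646, in core libraries. Together with 4 neighbouring genes on chromosome 1 it had 7034 to 46158 CPM in PWK libraries, median 18290, against 6176 to 21496 CPM, median 8944. These 4 genes were taken by position, and whether each is a copy of mt-Co2 was not checked. The summed level was 25959, 38673, 9388, 8468, 7034, 28189, 46158 and 10621 CPM in PWK replicates 1, 2, 3, 4, 5, 6, 7 and 9. The same 4 libraries that had high nuclear respiratory chain genes were high for this sum. By the medians, mt-Co2 alone was lower in PWK and the sum was higher. The sum may mix different genes and is not a level of mt-Co2. Of the 13 mitochondrially encoded genes, 10 were higher and 2 lower in PWK, and 9 share reads. At a log2 Xist of 9, 11 were higher and 2 lower, and at 1, 0 were higher and 3 lower, median 0.01. Without the liver-rich libraries, 4 were higher and 2 lower.

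Called genes with at least a 2-fold change were also neighbours in places. There were 23 runs of at least 4 neighbouring tested genes with the same direction. The longest, 9 genes higher in PWK at chr4:42206998-42589938, and the next, 8 genes lower at chr1:84963669-85327306, consist of genes that share reads. A run of higher genes at chr4:60658466-61674136 holds 5 major urinary protein genes, of which Mup17 had 0.970 to 336 CPM in PWK libraries and 0 to 18.7 CPM in core libraries (log2 fold change 7.79 ± 0.92 SE, adjusted p = 3.43e-10). Major urinary proteins are pheromone carriers made mainly in liver, and of 13 such and lipocalin genes tested 7 were higher, or 3 without the libraries rich in liver markers. Leaving out PWK replicate 4 alone also gave 3. The mean log2 CPM of that list was 3.24 in PWK replicate 4 and at most 0.54 in the other PWK libraries. The coordinates are those of the deposited table, on GRCm38.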

How the data were processed

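Poly(A) RNA of adipose tissue was made into libraries with spiked-in control RNA, per the labels' protocols. The authors deposited expected counts per gene, estimates that need not be whole, on GRCm38, and a table of log2 variance-stabilised values. DESeq2 is named in the submitters' processing notes, while the aligner, the counter and any use of strain-specific sequences are not given in the sources used here. Of the deposited estimates, 21.1% were not whole within 1e-06, and 23 symbols that had been turned into dates were restored. Reads lost or moved in PWK because its sequence differs from the build would lower or shift its counts.

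Counts were rounded and fitted with edgeR 4.0.16 in R 4.3.3 over all 61 libraries, with 1 mean per strain, TMM scaling, the filter filterByExpr by strain (2566 genes set aside) and a robust quasi-likelihood test of PWK minus the mean of the 4 core strain means, with Benjamini-Hochberg adjustment over 18603 genes. CPM are counts scaled by the TMM-adjusted total of each library. The common biological coefficient of variation was 0.414. The same fit was run on simulated counts with the filter and spread of these data and known changes in 200 genes. It recovered 76% of changes of 1 on the log2 scale and 43% of changes of 0.5. Of its calls, 4.03% fell on unchanged genes. In the simulated counts the strains had equal means in all other genes, with no pattern by Xist or organ markers. In the data 46.5% of genes were called, so these shares cannot be carried over to the comparison itself. Intervals of ratios against near-0 genes are exact Poisson intervals for counting error.

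The gene lists, the genes to be described and the alternatives were chosen with earlier results of these data known. Genes were named as the 12 with the largest change each way among called genes with at least 5 CPM in the higher side and no overlap between PWK and core libraries, and as the 4 largest each way among genes that share reads. Also named were up to 4 called members of each list in its main direction and 1 in the other, up to 6 genes near 0 in 1 side, the 6 each way farthest from all other strains, the 5 longest runs of neighbours and 12 set genes. Predicted genes, pseudogenes, Xist and Y-linked and mitochondrial genes were passed over, and the text gives a part of these. Ndufa11, Sdhd and mt-Co2 were chosen after their values were seen.

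Alternatives were RLE size factors, other filters, DESeq2 1.42.0, limma 3.58.1 on the log2 values the authors deposited, fewer libraries in the fit, each core strain or PWK library left out, a replicate block, Xist as a covariate and subsets of genes. The slopes on Xist and the fits without libraries over 500 CPM of liver, 300 CPM of muscle or 300 CPM of duct markers were added after seeing the data.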

Additional observations from a re-analysis of the deposited data

Results flagged for a closer look

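Of 187 checks for a single PWK library far from the other 7, 11 found one, where chance alone marks about 5 percent of such groups. PWK replicate 1 was high for H2-Eb1 at 17.5 CPM, with the next at 5.09 CPM, and for the mean log2 CPM of the mast cell and granulocyte list at 1.71, with the next at 0.16. PWK replicate 2 was high for Oas1c at 0.0921 CPM (next 0.0244) and low for Cma1 at 0.43 CPM (next 1.60) and Il1rl1 at 1.32 CPM (next 2.99). PWK replicate 3 was low for Cyp2e1 at 243 CPM (next 704). PWK replicate 6 was high for Pla2g2e at 3.16 CPM (next 0.399), for the smooth muscle and pericyte list at a mean log2 CPM of 7.76 (next 6.20) and for the skeletal muscle list at 0.39 (next -1.25), and low for Cd209a at 0.0554 CPM (next 0.245). PWK replicate 7 was low for Folr2 at 2.89 CPM (next 4.79).

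The PWK minus core difference changed with log2 Xist in 3093 genes (16.6% of those tested), by a test of the difference in slope, 1724 of them towards PWK at high Xist and 1369 away from it.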

How the results depend on the processing

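The count of 8644 called genes stayed within 1.5 times of itself under the alternatives tried, with 2 exceptions that test or keep fewer genes. When genes had to average 5 CPM or more it was 5392 of 11236 genes tested, and with at least a doubling or halving required it was 2985. Leaving out each PWK library in turn gave 7802 to 8698 calls, the lowest without replicate 7. DESeq2 gave 8778 calls, of which 8442 were shared in direction, and limma on the deposited log2 values gave 8182, of which 7723 were shared. Without genes that share reads 6539 were called. With the replicate block the count was 8557, and 4590 among the core strains in place of 4798. The labels do not say that a number pairs libraries, the deviations of the 66 same-numbered pairs correlated at -0.444 to 0.56 (median 0.133), and 9 of 38 libraries correlated best with their own number, so the block is reported for completeness. Fasn and Pparg were not called with the block (0.75 and 0.25, adjusted p = 0.0974 and 0.0873).

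Of 126 genes followed, 121 were called, and 98 of these kept the call under all 19 alternatives run for single genes. The slopes on Xist are not among these 19. With them, called genes did change sign at a log2 Xist of 1, among them Ucp1 and Cidea, as given above. Acly, at 1.32 over all libraries, was at -0.62 there (adjusted p = 0.399 in the test at that point). Over the 19 alternatives, 2394 values gave 64 lost calls and 2 changes of sign, both in genes that were not called. Scd1 was at 0.02 without PWK replicate 6 (-0.08 over all libraries), with values of -0.17 to 0.02 over the libraries left out. Cyp2e1 was at -0.14 with AJ left out of the reference (0.28 with it). The causes were not tested. Of 1302 counts per list, 136 moved by over 1.5 times.

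The limits are those of the labels. Depot, sex, age and batch are not in them, so a difference between PWK and core libraries cannot be assigned to strain alone. The 3 PWK libraries rich in liver markers include 2 of the 4 with high Xist.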

Other observations

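Lists outside the metabolic and immune groups varied in how often they were called. Of 36 imprinted genes tested, whose expression depends on the parent of origin, 15 (41.7%) were higher in PWK and 5 lower, median 0.21, against 25.9% and 20.5% of all genes, with 18 higher and 3 lower at a log2 Xist of 1 and 10 higher and 8 lower at 9. Cholesterol synthesis and transport genes were lower in 11 of 33 cases (33.3%) and higher in 7, median -0.15. The count of lower genes was 5 without PWK replicate 4 or 5, 6 without replicate 6 or 9 and 5 with AJ left out of the reference, and at a log2 Xist of 9 it was 4, with 8 higher. Cell division genes were called in 2 of 36 cases each way, well under the background. Circadian clock genes, which report on the time of day, were higher in 3 of 21 cases and lower in 1.

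Over the autosomes and the X chromosome, the share of genes called was lowest on the X, at 40.3% of 586 genes, and highest on chromosome 17, which holds the MHC, at 51.5% of 880 genes. Red cell transcripts overlapped between the sides once near-identical copies were summed, with Hba-a1 and Hba-a2 together at 432 to 1884 CPM in PWK libraries, median 753, and 393 to 2528 CPM, median 616, in core libraries.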
